A study of Mus musculus with 16 samples.

Results

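The Kruppel-like factors described here are 10 genes, Klf2, Klf3, Klf4, Klf6, Klf7, Klf9, Klf10, Klf11, Klf12 and Klf13, read by symbol from a table of 55385 genes counted in CD11b+ cells of the mouse brain. All 10 passed the filter on low counts, among 14513 genes tested, and the question put to them was whether Klf4 moved alone or with its family. Klf4 was chosen on the contrast of Card9-/-5xFAD with 5xFAD in these same libraries, and the other 9 were taken with that result known. Of all 17 Klf genes listed, 12 passed the filter, the other 2 being Klf15 and Klf16. Cells were sorted with magnetic CD11b beads from perfused brains of mice, given as 20 weeks old on the labels, from which meninges and choroid plexus had been taken off. The paper's methods name female 5xFAD mice among the stocks crossed, and do not state the sex of the mice sequenced. CD11b is a surface integrin of microglia that other myeloid cells share. The 16 libraries fall into 4 genotypes of 4, namely WT (Card9+/+ without transgenes), Card9-/-, 5xFAD, and Card9-/-5xFAD. Card9 was deleted in the germline, so every cell of the Card9-/- and Card9-/-5xFAD mice carries the deletion, and the 5xFAD transgenes are human genes mutated as in familial Alzheimer's disease, under which Aβ builds up in the brain. The labels number the replicates and say nothing more of their source, so p-values measure the spread between libraries that may in part be technical.

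Kruppel-like factors are transcription factors that bind GC-rich and CACCC elements of promoters through zinc fingers at the C terminus. Klf2, Klf4, Klf6 and Klf7 act mostly as activators, Klf3 and Klf12 as repressors that recruit CtBP, and Klf9, Klf10, Klf11 and Klf13 as repressors that bind Sin3. In myeloid cells Klf2 restrains inflammatory activation, Klf4 takes part in monocyte differentiation and macrophage polarization, and several members are themselves transcribed quickly after stimulation.

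The promoters of the genes that the results turn on are printed because Klf proteins bind such sequences, also those of their own family. Klf2 and Klf4 varied together across libraries, and Klf3 and Klf7 are the members that passed the test with the transgenes. Each run covers 250 bases before and 50 bases after the RefSeq start on GRCm38.p6, read on the strand of the gene. The windows are chr8:72318812-72319111 (+) for Klf2, chr4:55532426-55532725 (-) for Klf4, chr5:64803271-64803570 (+) for Klf3, and chr1:64121340-64121639 (-) for Klf7. Capitals mark the GC box GGGCGG and the CACCC box CACCC, on both strands.
Klf2: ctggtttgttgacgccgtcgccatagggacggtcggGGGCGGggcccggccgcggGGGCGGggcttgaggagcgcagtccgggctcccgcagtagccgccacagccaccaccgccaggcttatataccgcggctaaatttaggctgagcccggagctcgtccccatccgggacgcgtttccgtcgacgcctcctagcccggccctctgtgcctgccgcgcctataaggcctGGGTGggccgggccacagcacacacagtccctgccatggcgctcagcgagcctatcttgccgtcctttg
Klf4: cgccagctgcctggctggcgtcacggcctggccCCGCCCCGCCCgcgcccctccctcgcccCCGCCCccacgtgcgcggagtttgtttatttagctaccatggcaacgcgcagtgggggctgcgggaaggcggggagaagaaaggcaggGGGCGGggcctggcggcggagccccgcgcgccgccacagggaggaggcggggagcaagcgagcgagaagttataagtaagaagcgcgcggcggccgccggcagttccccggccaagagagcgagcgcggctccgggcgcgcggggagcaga
Klf3: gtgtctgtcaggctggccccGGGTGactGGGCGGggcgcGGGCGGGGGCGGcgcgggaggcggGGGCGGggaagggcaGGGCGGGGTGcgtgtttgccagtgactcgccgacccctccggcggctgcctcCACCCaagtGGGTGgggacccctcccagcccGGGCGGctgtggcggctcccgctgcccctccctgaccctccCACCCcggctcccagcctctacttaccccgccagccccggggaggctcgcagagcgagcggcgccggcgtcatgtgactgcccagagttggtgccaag
Klf7: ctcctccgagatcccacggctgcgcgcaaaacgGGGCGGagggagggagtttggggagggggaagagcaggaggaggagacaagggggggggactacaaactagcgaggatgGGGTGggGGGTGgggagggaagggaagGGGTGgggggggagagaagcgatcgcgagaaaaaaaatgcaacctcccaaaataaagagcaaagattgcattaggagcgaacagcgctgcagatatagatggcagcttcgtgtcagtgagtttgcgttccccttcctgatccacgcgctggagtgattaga
The Klf2 window held 2 GC boxes and 1 CACCC box, the Klf4 window 4 GC boxes and 0 CACCC boxes, the Klf3 window 6 and 5 (1 pair of which shared bases), and the Klf7 window 1 and 3. RefSeq gave a promoter for 9 of the 10 members, with none for Klf10. A GC box lay in 7 of the 9, against 35.7% of 32851 promoters of the same length, and a CACCC box in 6 of 9, against 57.5%. A match to the MEF2 site, the element through which ERK5 signaling induces Klf2, lay 118 bases before the start of Klf2 and in 0.557% of all promoters. No member promoter held a CArG box (1.63% of all promoters) or the full cAMP response element TGACGTCA (1.79%), while its core TGACG lay in 6 of 9 (those of Klf2, Klf3, Klf4, Klf9, Klf12 and Klf13, against 20.8% of all promoters), and 1, that of Klf9, held the AP-1 site TGANTCA (7.81%). The member windows had a GC content of 45.7% (Klf12) to 77.7% (Klf11), and the shares over all promoters were not matched for it. The Klf12 window, chr14:100149747-100150046, lies inside the gene (99870632 to 100284679, minus strand). The motif matches describe letters in a window, not binding.

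Between 2970148 and 19333325 reads per library were counted on genes (median 7944265), and 2 libraries, Card9-/- replicate 4 and Card9-/-5xFAD replicate 4, had fewer than 4000000. All 11 microglia markers were detected in every library, with summed levels of 18279 to 35141 CPM (CPM, counts scaled to a common library size by TMM). In 3 libraries, WT replicate 1 and those same 2, neutrophil markers summed to 3866, 6539 and 6284 CPM, against 740.0 to 2696 CPM in the other 13, and endothelial markers were also highest there (186, 285 and 125 CPM, against 43.3 to 95.5 CPM). So were markers of border-associated macrophages (1739, 1950 and 1836 CPM, against at most 1293) and astrocytes (336, 348 and 321 CPM, against at most 256). Microglia markers were lowest in WT replicate 1 and Card9-/- replicate 4 (18279 and 19865 CPM). Results are therefore also given without these 3 libraries, a step taken after the data were seen. In sorted bulk RNA, fewer cells of a type and less RNA per cell cannot be told apart. Card9 itself lay between 16.7 and 34.8 CPM in Card9-/- and between 9.73 and 33.7 CPM in Card9-/-5xFAD, ranges that overlap those of WT (13.6 to 51.3 CPM) and 5xFAD (15.6 to 33.5 CPM), so the genotypes rest on the labels.

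Klf6 was the most abundant member. Levels of different genes were compared as CPM per kilobase of exon, and over 16 libraries Klf6 stood at 112 ± 34.5 CPM per kb (SD, n = 16), followed by Klf2 at 76.2 ± 65.9, Klf10 at 28.4 ± 48.2, Klf3 at 22.3 ± 7.51 and Klf4 at 17.3 ± 17 CPM per kb. The lower members were Klf13 at 9.04 ± 3.44, Klf7 at 6.24 ± 1.79, Klf12 at 3.77 ± 1.59, Klf11 at 1.12 ± 0.624 and Klf9 at 0.651 ± 0.432 CPM per kb. Each gene's range over the libraries overlapped that of its neighbours in this order. Klf9 had 5 to 57 reads per library and Klf11 had 6 to 218, so their values carry the most counting error.

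The members differed widely in how steady they were. Within genotypes, the SD of the log2 CPM was 1.53 for Klf10, higher than that of 97.2% of the genes tested, 1.13 for Klf4 (89.6%) and 0.99 for Klf2 (83.7%), while the median over all genes was 0.62. Klf7 and Klf3 were among the steadier genes, with SDs of 0.30 and 0.38 that exceeded those of only 5.93% and 14.8% of the genes. The genotype accounted for 58.2% of the variance of Klf7 and 52.3% of that of Klf3 between libraries, and for 28.2% of that of Klf4 and 8.21% of that of Klf10. With so few libraries per genotype some share arises by chance, and the share over all genes is not given here.

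**Figure D1:**
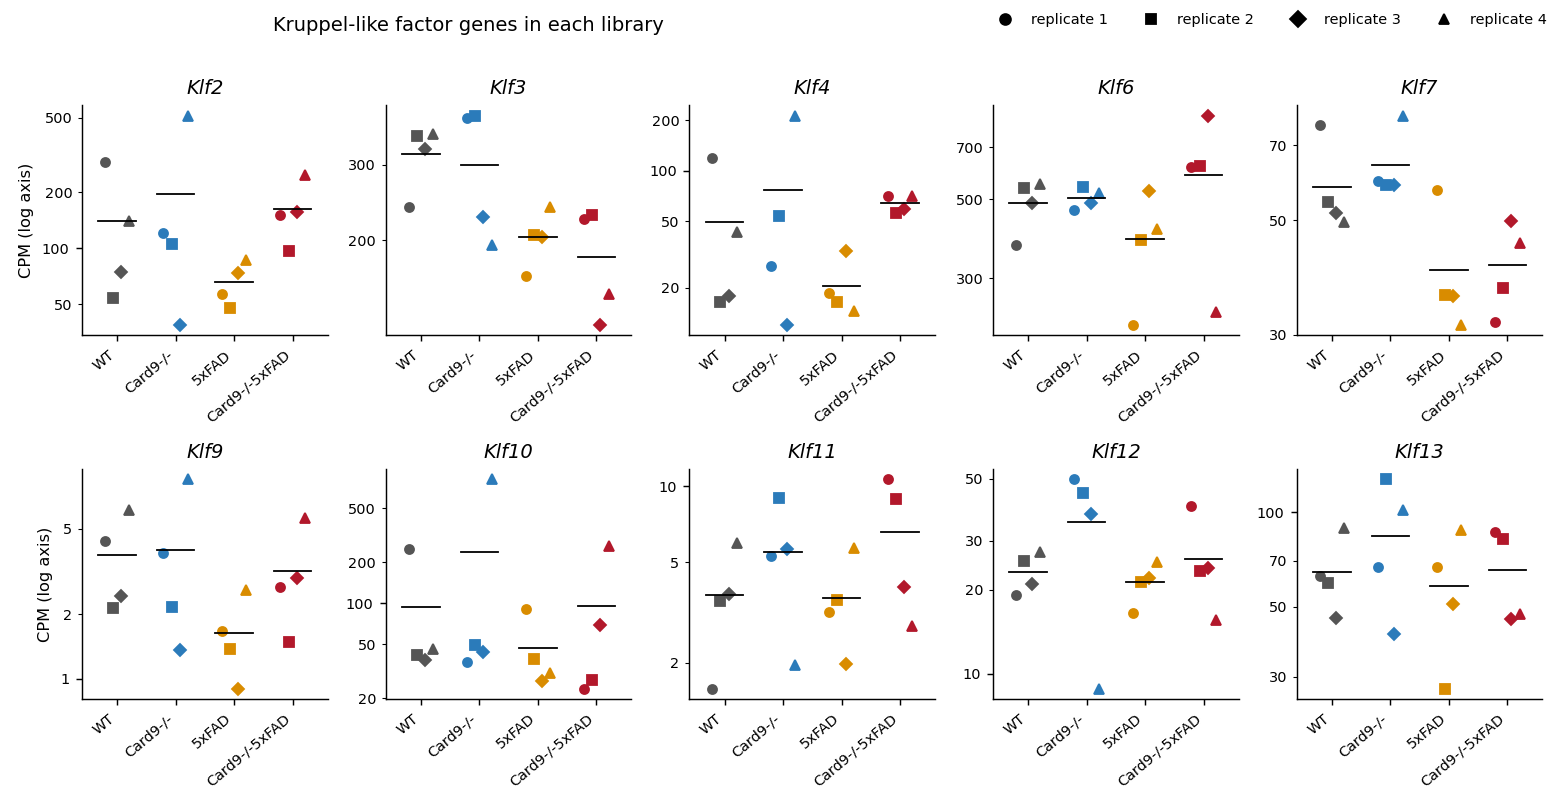
CPM of each of the 10 genes (y axis, log scale, 1 panel per gene) in the 4 libraries of each genotype (x axis), with marker shapes for the replicate number and a bar at the mean of 4. Klf3 and Klf7 sit lower in the genotypes with transgenes, and Klf10 stands far above the rest in 1 WT library (251 CPM) and 1 Card9-/- library (820.1 CPM).

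The activators are taken first. Klf4 (chromosome 4, 55527143 to 55532466 on GRCm38, minus strand) measured 119.9, 16.5, 17.8 and 43.1 CPM in WT replicates 1 to 4, and 27.0, 53.7, 12 and 214 CPM in Card9-/-. It measured 18.5, 16.4, 32.9 and 14.4 CPM in 5xFAD, and 70.7, 55.6, 59.3 and 70.5 CPM in Card9-/-5xFAD. All 4 Card9-/-5xFAD libraries lay above all 4 of 5xFAD, and both ends of the whole range, 12 and 214 CPM, came from Card9-/-. In the genotypes without transgenes, Klf4 spanned so wide a range that the Card9-/-5xFAD values fell inside it.

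Klf2, the nearest relative of Klf4 in function (chromosome 8, 72319033 to 72321656, plus strand), measured 291, 54.3, 74.6 and 140.3 CPM in WT and 119.8, 105, 38.7 and 514 CPM in Card9-/-. It measured 56.6, 47.7, 73.4 and 86.6 CPM in 5xFAD and 150.1, 96.2, 156 and 246 CPM in Card9-/-5xFAD. The pattern was that of Klf4: the highest libraries were again Card9-/- replicate 4 and WT replicate 1, the lowest was Card9-/- replicate 3, and the Card9-/-5xFAD libraries did not overlap those of 5xFAD.

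Klf6, an activator induced quickly in stimulated macrophages, measured 373, 537, 487 and 551 CPM in WT and 466, 541, 489 and 522 CPM in Card9-/-. In 5xFAD it measured 222, 386, 528 and 413 CPM, and in Card9-/-5xFAD 615, 620.1, 859 and 241 CPM. Replicates 1 to 3 of Card9-/-5xFAD exceeded every other library, and replicate 4 was among the lowest. Klf7, the closest relative of Klf6 (chromosome 1, 64029447 to 64122282, minus strand), was the steadiest member. Klf7 measured 76.4, 54.3, 51.6 and 49.5 CPM in WT, 59.7, 58.5, 58.6 and 79.8 CPM in Card9-/-, 57.3, 35.8, 35.6 and 31.3 CPM in 5xFAD, and 31.7, 37.0, 49.9 and 45.3 CPM in Card9-/-5xFAD.

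Of the repressors that recruit CtBP, Klf3 (chromosome 5, 64803388 to 64832901, plus strand) measured 239.8, 351, 328 and 354 CPM in WT and 386, 391, 226 and 195 CPM in Card9-/-. It measured 165, 205, 204 and 239 CPM in 5xFAD, all below the lowest WT library, and 224, 229.7, 127 and 149.8 CPM in Card9-/-5xFAD. Klf12 measured 19.2 to 27.3 CPM in WT, 8.83 to 49.8 in Card9-/-, 16.5 to 25.1 in 5xFAD and 15.6 to 40 in Card9-/-5xFAD. The 8.83 CPM of Klf12 came from Card9-/- replicate 4, where Klf2, Klf4, Klf7, Klf9 and Klf10 had their highest values.

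Among the repressors that bind Sin3, Klf10, a gene induced by TGF-beta, measured 251, 41.4, 38.1 and 46.3 CPM in WT and 36.9, 49.1, 43.6 and 820.1 CPM in Card9-/-. It measured 90.7, 39.1, 27.0 and 30.8 CPM in 5xFAD and 23.6, 27.2, 69.7 and 265 CPM in Card9-/-5xFAD. The 3 libraries above 200 CPM were the 3 that were high in neutrophil and endothelial markers, and the other 13 lay at or below 90.7 CPM. Klf9, a gene induced by glucocorticoids, ranged from 0.899 CPM in 5xFAD to 8.51 CPM in Card9-/-, Klf11 from 1.58 CPM in WT to 10.7 CPM in Card9-/-5xFAD, and Klf13 from 27.6 CPM in 5xFAD to 127 CPM in Card9-/-. None of these 3 separated any pair of genotypes.

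Across the libraries, Klf2 was the member that followed Klf4 most closely. Over the 16 libraries the log2 CPM of the pair had a Pearson r of 0.925 (permutation test, two-sided, n = 16, p = 1e-05, the smallest that 100000 permutations can give, and 9.0e-05 after Benjamini-Hochberg adjustment over 9 members) and a Spearman rho of 0.897 (permutation p = 3.0e-05, adjusted 0.00027). This r was the highest among the 14512 other genes tested. It was 0.851 without the 2 libraries farthest from the median of Klf4, which were Card9-/- replicate 4 and WT replicate 1. It was 0.968 in the 8 libraries without transgenes (place 16 among those genes) and 0.832 in the 8 with them (place 30), and 0.907 with genotype means removed, where Klf2 was the gene of place 7. Among the 13 libraries left without the 3 high in neutrophil markers it was 0.831 (place 2). The permutations exchanged libraries across genotypes. Differences between genotypes, also the one that chose Klf4, therefore enter the r over 16 libraries and its p, here and for the other members below. Such a p is no test apart from that choice, and a p for the r with genotype means removed is not reported here.

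Klf10 and Klf9 also followed Klf4 in the 16 libraries, but not apart from a few of them. Klf10 had r = 0.659 with Klf4 (permutation p = 0.00456, adjusted 0.0205) and rho = 0.368 (permutation p = 0.161, adjusted 0.362). Its r was 0.226 without the 2 farthest libraries, 0.453 without Card9-/- replicate 4 and -0.15 without the 3 libraries high in neutrophil markers. Klf9 had r = 0.638 (permutation p = 0.00769, adjusted 0.0231) and rho = 0.626 (permutation p = 0.0108, adjusted 0.0488), and its r was 0.409 without the 2 farthest libraries. An r with Klf4 at least as high as that of Klf10 was held by 3.9% of the genes tested, and as that of Klf9 by 5.11%. With genotype means removed these shares were 5.55% and 14.6%. Without Card9-/- replicate 4, Klf2 was the only member of the 9 whose r passed an adjusted p of 0.1. The other 6 members had r between -0.384 (Klf12) and 0.448 (Klf13), with adjusted permutation p of 0.184 or more. Klf6, with r = 0.176 over 16 libraries, reached r = 0.621 without the 3 libraries high in neutrophil markers (permutation test, adjusted p = 0.0542).

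**Figure D2:**
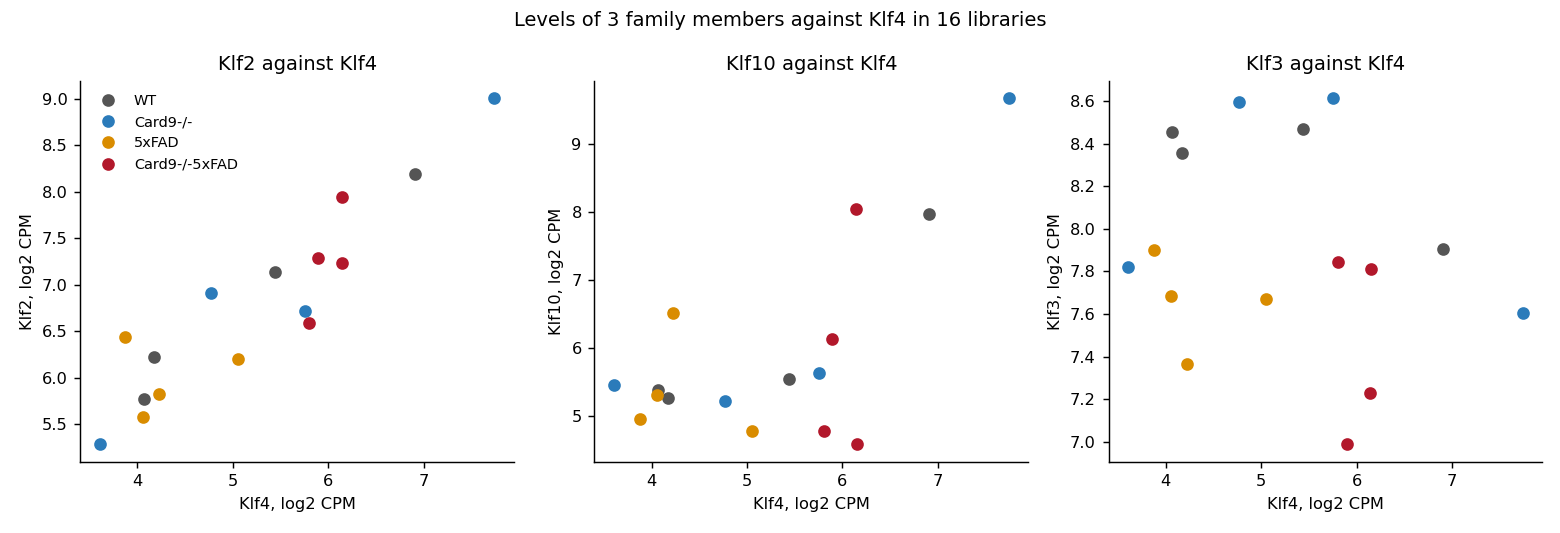
Log2 CPM of Klf2, Klf10 and Klf3 (y axes) against that of Klf4 (x axis) in the 16 libraries, 1 point per library, colored by genotype. The Klf2 points lie near a line (r = 0.925), those of Klf10 rise mainly in the highest libraries (r = 0.659), and those of Klf3 show no clear slope (r = -0.236).

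With genotype means removed, the members fell into groups that moved against each other. Klf2, Klf4, Klf9 and Klf10 had pairwise r of 0.597 (Klf4 and Klf9) to 0.907 (Klf2 and Klf4), and Klf7 joined Klf10 (r = 0.785). Klf3, Klf11 and Klf12 had pairwise r of 0.71 to 0.786 among themselves. The sharpest opposition was between Klf10 and Klf12 (r = -0.879), followed by Klf10 and Klf11 (r = -0.801), the pair of genes induced by TGF-beta. These r describe 16 libraries that share depth and cell makeup, and have no p. Library depth moved with them: after the same centring, log2 total counts had r = -0.846 with Klf10, -0.792 with Klf2, -0.761 with Klf9 and -0.619 with Klf4, and r = 0.839 with Klf11, 0.796 with Klf12 and 0.612 with Klf3. With depth also removed, Klf2 and Klf4 had r = 0.870, and Klf10 and Klf9 had r of 0.415 and 0.248 with Klf4. The r of Klf4 with Klf3 went from -0.342 to 0.059, with Klf11 from -0.531 to -0.029 and with Klf12 from -0.592 to -0.208. That with Klf13 was 0.616. The opposition to Klf4 was thus weak or absent once depth was removed, and pairs without Klf4 were not computed that way. Without the 3 libraries high in neutrophil markers, and with genotype means kept, Klf3, Klf11 and Klf12 had r of -0.072, 0.493 and 0.280 with Klf4.

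**Figure D3:**
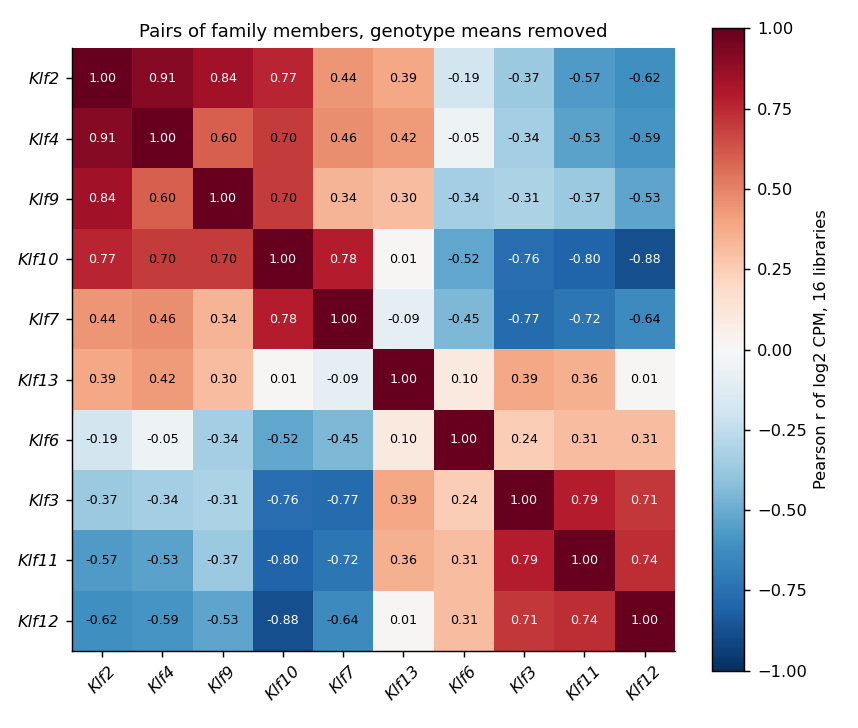
Pearson r of the log2 CPM of each pair of members over 16 libraries after genotype means were removed (color and printed value, -1 to 1). The upper left block, with Klf2, Klf4, Klf9 and Klf10, is positive, and its r with Klf3, Klf11 and Klf12 are negative, down to -0.88 for Klf10 and Klf12.

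**Figure D4:**
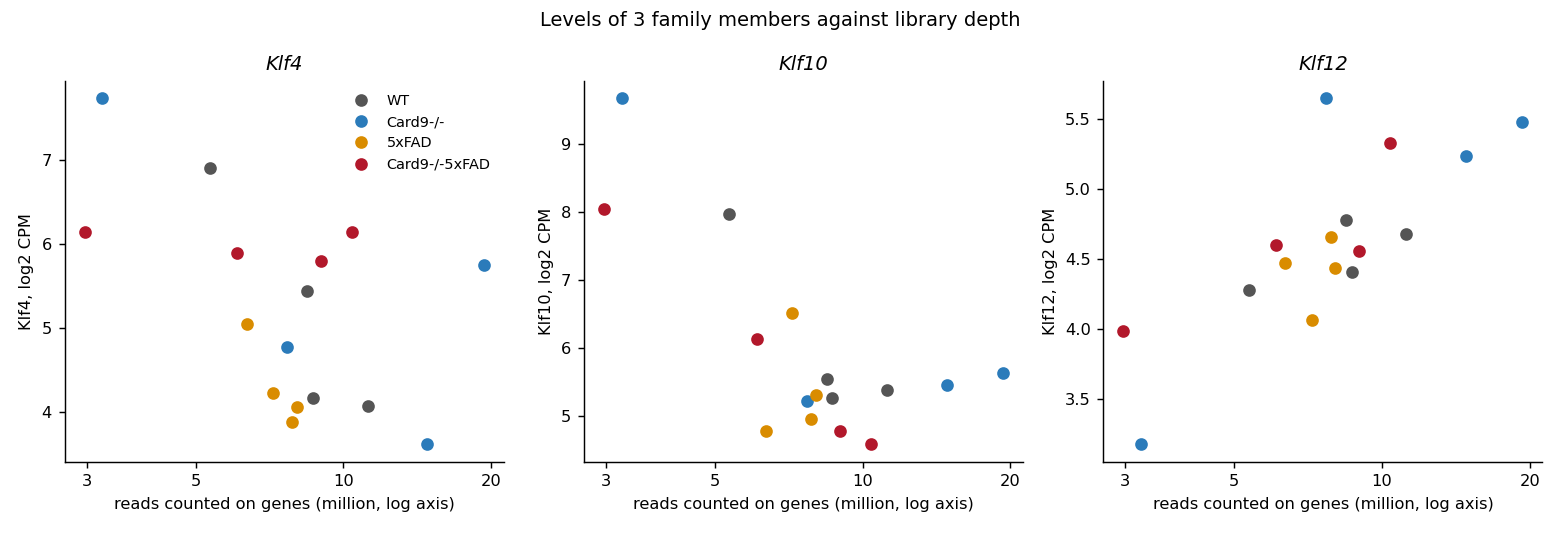
Log2 CPM of Klf4, Klf10 and Klf12 (y axes) against the reads counted on genes in each library (x axis, log scale), colored by genotype. Klf10 falls and Klf12 rises with depth, and the shallowest Card9-/- library has the highest Klf4 and Klf10 and the lowest Klf12.

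The genes nearest to Klf4 outside the family, by r with genotype means removed, were Gm16575 (r = 0.952), Gm47863 (0.928), Alcam, an adhesion molecule (0.922), Neurl4 (0.914) and Fosb, an AP-1 subunit induced within minutes of stimulation (0.913). Fosb belongs to a list of 32 early response genes without any Klf gene, all of which were tested. Their mean log2 CPM was followed by 5 of the 10 members at an adjusted permutation p under 0.1: Klf2 (r = 0.704, rho = 0.682, adjusted p = 0.0223), Klf4 (r = 0.670, rho = 0.632, adjusted p = 0.0227), Klf6 (r = 0.615, rho = 0.591, adjusted p = 0.0368), Klf13 (r = 0.583, rho = 0.524, adjusted p = 0.0449) and Klf9 (r = 0.564, rho = 0.512, adjusted p = 0.0465), over 16 libraries and with adjusted permutation p for rho of 0.0482 to 0.0902. An r at least as high was held by 0.345%, 0.62%, 1.28%, 1.98% and 2.55% of the genes tested, in the same order. With genotype means removed, the shares ran from 1.59% (Klf2) to 6.55% (Klf9). Without the 2 farthest libraries the r of the 5 members were 0.550, 0.520, 0.489, 0.681 and 0.373, in the same order. With genotype means removed none of the 10 passed (r of 0.610 for Klf2, 0.552 for Klf4, 0.549 for Klf13, 0.508 for Klf6 and 0.440 for Klf9), and without Card9-/- replicate 4 only Klf6 did. Without the 3 libraries high in neutrophil markers 4 passed, Klf2, Klf4, Klf6 and Klf11 (r = 0.606, adjusted permutation p = 0.0712), and Klf9 and Klf13 did not (adjusted permutation p = 0.107 each). Single early genes went apart: with genotype means removed, Trib1 (r = 0.804) and Maff (r = 0.823) followed Klf4 while Fos (r = 0.029), Egr1 (r = 0.030) and Junb (r = -0.297) did not.

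The 5xFAD transgenes came with lower Klf3 and Klf7. The transgene effect was tested with edgeR's quasi-likelihood test in a fit of all 16 libraries, averaged over both Card9 genotypes, with Benjamini-Hochberg adjustment over 14513 genes and a threshold of 0.1. Klf3 fell by 0.68 on the log2 scale (SE 0.21, adjusted p = 0.0670) and Klf7 fell by 0.59 (SE 0.18, adjusted p = 0.0627), 2 of 10 members where 11.3% of all genes passed. DESeq2 on all libraries called the same 2. Neither gene separated all 8 libraries with transgenes from all 8 without, which 1.66% of genes did. Both calls were close to the threshold: leaving out 1 library kept that of Klf3 in 6 of 16 cases (those without WT replicate 1, Card9-/- replicate 3 or 4, or Card9-/-5xFAD replicate 1, 2 or 4) and that of Klf7 in 11, the losses being those without 5xFAD replicate 2, 3 or 4 or Card9-/-5xFAD replicate 1 or 2. Without the 3 libraries high in neutrophil markers both remained called, Klf3 at -0.75 (adjusted p = 0.0125) and Klf7 at -0.45 (adjusted p = 0.0811).

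Within each Card9 genotype the change was of like size but none of the 10 members passed. In 5xFAD against WT all 10 members were lower in value, as were 8866 of 14513 genes. Of the 10, 0 were called where 2.09% of genes were, and 0 were called by DESeq2. An unadjusted p under 0.05 was held by 1 member and by 1573 of 14513 genes. Klf3 was at -0.65 (SE 0.30, adjusted p = 0.452 by edgeR's quasi-likelihood test), the only member of the 10 whose groups did not overlap, as for 8.04% of genes, and Klf7 was at -0.53 (SE 0.26, adjusted p = 0.468). The median of the 10 was -0.59 on the log2 scale against -0.15 over all genes, and -0.31 against -0.08 without the 3 libraries high in neutrophil markers, where Klf4 went from -1.26 to -0.29, Klf2 from -1.08 to -0.41 and Klf10 from -1.0 to 0.19. In Card9-/-5xFAD against Card9-/-, 0 were called where 1.97% of genes were, and DESeq2 called 0. An unadjusted p under 0.05 was held by 2 members and by 1772 of 14513 genes. Klf3 was at -0.71 (SE 0.30, adjusted p = 0.334) and Klf7 at -0.65 (SE 0.26, adjusted p = 0.292), and Klf7 was the only member whose groups did not overlap, as for 7.01% of genes. Klf2 and Klf4 were at -0.26 and -0.25 there, and at 0.88 and 1.04 without Card9-/- replicate 4.

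Exons of Klf3 share 404 bases with Gm20033 on the opposite strand, and those of Klf7 share 3196 bases with Gm26649 and 4 with Gm13748. The strand setting of the counting is not given in the sources used here, so reads of these pairs cannot be told apart. Markers of border-associated macrophages and monocytes moved with the transgenes too, with 5 of 8 and 4 of 7 tested markers lower when averaged over Card9 genotypes, as were 3 of 10 neutrophil markers. F13a1 is counted in both of the first 2 lists. Lower were also 2 of 7 T or NK cell markers and 1 of 9 endothelial markers, while 2 of 7 astrocyte markers were higher. Over all genes, 831 of 14513 were called lower and 816 higher. The border-associated list summed to 432 to 1836 CPM in the genotypes with transgenes and 1003 to 1950 CPM in those without, and the monocyte list to 133 to 363 against 348 to 531 CPM, with none of their markers at 0 in all libraries. The part of these cells in the levels of Klf3 and Klf7 was not tested.

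**Figure D5:**
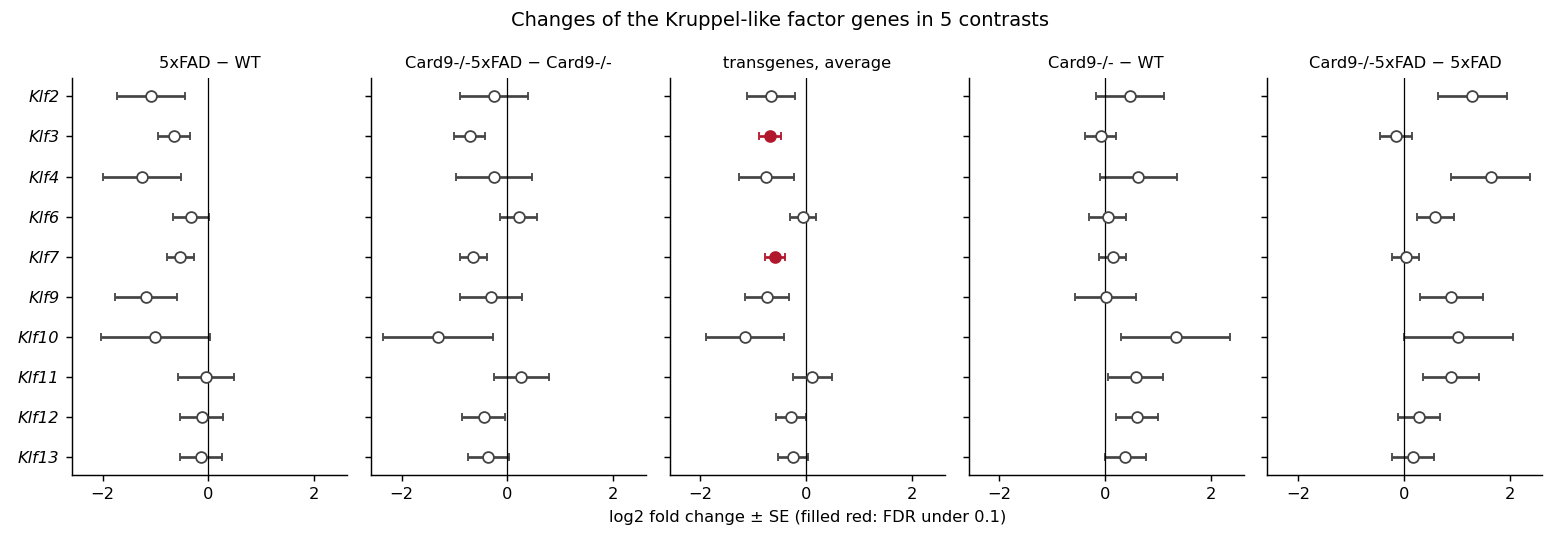
Log2 fold change (x axis) with SE of each member (y axis) in 5 contrasts, from edgeR's fit of 16 libraries, with filled red points for an adjusted p under 0.1. Only Klf3 and Klf7 in the averaged transgene contrast are filled, and in the last panel Klf4 (1.64) and Klf2 (1.29) lie farthest to the right.

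No member passed the test for deletion of Card9 without transgenes. In Card9-/- against WT, 0 of 10 members were called by edgeR's quasi-likelihood test, as were 0% of all genes, with 0 members at an unadjusted p under 0.05 (597 of 14513 genes) and 0 called by DESeq2. No member's groups were apart, where those of 2.66% of genes were. The values were above 0 for 9 of 10 (8630 of 14513 genes), with a median of 0.43 on the log2 scale (0.11 over all genes), and the largest was Klf10 at 1.33 (SE 1.04). These values turned on Card9-/- replicate 4, without which Klf10 was at -1.12, Klf2 at -0.67 in place of 0.47, and Klf4 at -0.66 in place of 0.63. Without the 3 libraries high in neutrophil markers the median of the 10 was 0.12, against 0.03 over all genes.

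In Card9-/-5xFAD against 5xFAD, the contrast that chose Klf4, values are given as a description. The paper, with DESeq2, called Klf4 higher there at an adjusted p under 0.1. It also reported higher Klf4 by qPCR in microglia sorted from mice of the same genotypes. Klf4 averaged 64.0 ± 7.74 CPM (SD, n = 4) against 20.6 ± 8.39 (n = 4), a log2 difference of 1.64 (SE 0.74), and Klf2 averaged 162 ± 62.2 against 66.1 ± 17.4 CPM, a log2 difference of 1.29 (SE 0.65). These were the only members of the 10 whose groups did not overlap, as for 1.89% of all genes. Klf10 was at 1.03, Klf9 at 0.89, Klf11 at 0.89, Klf6 at 0.59, Klf12 at 0.28, Klf13 at 0.17, Klf7 at 0.03 and Klf3 at -0.15, with a median of 0.74 over the 10 and 0.14 over all genes. Without Card9-/-5xFAD replicate 4, Klf10 was at -0.22, Klf4 at 1.59 and Klf2 at 1.02. In edgeR's fit of all 16 libraries 0% of genes passed. Over all 14513 genes, 9000 were above 0 here, 5513 below, and 366 had an unadjusted p under 0.05. Choroid plexus and ependymal markers were lower in value here in 6 of 6 tested (median log2 difference -2.27, 0 called, 2 at an unadjusted p under 0.05). Their summed level ran from 301 to 1474 CPM in the 5xFAD libraries against 3.35 to 1206 CPM in those that also lacked Card9, and their part in the levels of the members was not tested. Of the 32 early response genes 31 were above 0 (median 0.50, 0 called by edgeR or DESeq2, 4 at an unadjusted p under 0.05), and with their mean as a covariate Klf4 was at 0.62 and Klf2 at 0.65. The difference between the Card9 effects with and without transgenes was 1.01 (SE 1.03) for Klf4 and 0.82 (SE 0.91) for Klf2, with 0% of genes called for this interaction, 0 members at an unadjusted p under 0.05 (78 of 14513 genes), and 0 members called by DESeq2. That difference for Klf4 was 2.30 without Card9-/- replicate 4 and 0.09 without WT replicate 1.

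Few genes of the lists around the family passed edgeR's test at the same threshold. Of 9 genes of the ERK5 and MEF2 axis upstream of Klf2 and Klf4, 15 of TGF-beta signaling, 8 induced by glucocorticoids and 4 Sp factors, the nearest relatives of the family, 0 passed in any contrast, and neither Klf15 nor Klf16 did. At an unadjusted p under 0.05, at most 3 genes of the ERK5 axis, 2 of TGF-beta signaling, 0 induced by glucocorticoids, 0 Sp factors and 1 of Klf15 and Klf16 passed in a contrast. The 3 of the ERK5 axis were in the averaged transgene contrast, where 3315 of 14513 genes passed at that p. With the transgenes averaged, DESeq2 on all libraries called 1 gene of the ERK5 axis, Mef2a, and 2 of TGF-beta signaling, among them Tgfb2. It also called Klf5, which did not reach the filter used for edgeR, in Card9-/-5xFAD against Card9-/-. All 9 genes of the ERK5 axis were below 0 with the transgenes averaged, as were 8951 of 14513 genes (median -0.40, against -0.15 over all genes). Of 11 corepressors and coactivators 1 rose with the transgenes averaged, Sin3b, a scaffold of the Sin3 complex (0.64, SE 0.20, adjusted p = 0.0655), a share near the 11.3% of all genes that passed.

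Of 9 tested textbook targets of Klf2 and Klf4, 3 fell with the transgenes averaged and none rose, where 831 of 14513 genes fell and 816 rose. They included Mrc1, the mannose receptor (-1.24, SE 0.19, adjusted p = 0.000942), and Thbd, thrombomodulin (-1.51, SE 0.39, adjusted p = 0.0312). Mrc1 also fell within both Card9 genotypes (-1.20 and -1.28, adjusted p of 0.0369 and 0.0313). Mrc1 is at the same time a marker of border-associated macrophages, most of whose markers fell as given above. DESeq2 called the same 3 and also Retnla and S1pr1. In Card9-/-5xFAD against 5xFAD 0 of the 9 targets passed in edgeR or DESeq2 and 0 had an unadjusted p under 0.05, and their median was 0.19 against 0.14 over all genes. Of the early response genes, Nr4a1 (-1.38, SE 0.37, adjusted p = 0.0346) and Csrnp1 (-0.80, SE 0.25, adjusted p = 0.0668) fell and Maff rose (1.57, SE 0.48, adjusted p = 0.0608) with the transgenes averaged, the other 29 not passing.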

How the data were processed

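Per the paper's methods and the labels, reads were aligned to mm10 with HISAT2, filtered with SAMtools and assigned to genes with HTSeq, and the authors deposited the resulting raw read counts, which are not normalized. The strand setting and the program versions are not given in the sources used here. All values were computed from these counts with edgeR 4.0.16 in R 4.3.3: TMM scaling, filterByExpr with a minimum count of 10, and quasi-likelihood tests on all 16 libraries with 4 groups, adjusted by the Benjamini-Hochberg method over 14513 genes at a threshold of 0.1. The SE was taken from the log2 fold change and its F statistic. Log2 CPM added a prior count of 2. Correlations were tested with 100000 permutations of libraries across genotypes, or within genotypes where genotype means were removed. None of the 24 within-genotype pairs of libraries held a copy (chi-square of at least 6.92 per degree of freedom). Exon lengths come from GENCODE on GRCm38 and promoters from RefSeq. The named genes are the 10 members, list genes that passed (up to 5 per list), the 5 nearest to Klf4, and Card9. Genes named beyond this rule (Trib1, Fos, Egr1, Junb, Mef2a, Tgfb2, Retnla, S1pr1, Klf5, Klf15 and Klf16) were chosen after their values were seen, and some list genes that passed are not reported here. The members and lists were chosen with earlier results of these data known. Alternatives included DESeq2 1.42.0, other filters and scalings, a replicate block, the removal of single libraries, and 1 surrogate variable (sva 3.50.0).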

Additional observations from a re-analysis of the deposited data

Results flagged for a closer look

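In 40 groups of 4 libraries (10 genes in 4 genotypes), 4 held a library that stood apart from the other 3 by Dixon's criterion, which chance alone meets in about 1 of 20 groups. Klf10 measured 251 CPM in WT replicate 1 against 38.1 to 46.3 CPM in the others, and 820.1 CPM in Card9-/- replicate 4 against 36.9 to 49.1 CPM. In that same Card9-/- library Klf2 measured 514 CPM against 38.7 to 119.8 CPM, and Klf7 measured 79.8 CPM against 58.5 to 59.7 CPM. Card9-/- replicate 4 had 3229322 counted reads and, with 6539 CPM of neutrophil markers and 285 CPM of endothelial markers, the highest summed levels of both lists. The part of these in the levels of the 3 genes was not tested.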

How the results depend on the processing

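No value of a member reversed past the threshold under any alternative. In the averaged transgene contrast, where 2 members passed, 1 passed with DESeq2 size factors (Klf3) and 1 with at least 10 counts in every library (Klf3, with 8 members tested), 0 with no filter on low counts and 0 at an adjusted p of 0.05, 4 with 1 surrogate variable (Klf3, Klf7, Klf9 and Klf10), and 0 to 2 when 1 library was left out. The surrogate variable also gave 3 (Klf3, Klf7 and Klf10) in both contrasts within a Card9 genotype, where leaving out 1 library gave 0. The shares of all genes called under these alternatives are not given here, so the counts of members are not read as a result about the family. For Card9-/-5xFAD against 5xFAD, DESeq2 on only the groups compared counted 1, Klf4, which is no test of Klf4 since that contrast chose it. The members following Klf4 numbered 3, and 1 to 4 when 1 library was left out, 1 without the 2 libraries of fewer than 4000000 counts, and 2 (Klf2 and Klf6) without the 3 libraries high in neutrophil markers. Those following the early response mean numbered 5, and 1 to 5 when 1 library was left out, 3 without 5xFAD replicate 2, 1 without Card9-/- replicate 4, 0 with genotype means removed, 3 without those 2 libraries, and 4 without the 3 high in neutrophil markers. Both sets of left-out libraries were chosen after seeing the data. The causes of these changes were not tested. With the replicate number as a block the calls were again 2 in the averaged transgene contrast and 0 in the others, and nothing in the labels ties libraries of 1 number together. Deviations correlated above 0.1 in 15 of 24 pairs of the same number (median r 0.141) and in 33 of 72 pairs of other numbers (median r 0.0225), and 5 of 16 libraries correlated best with their own number, so the numbers were not taken as pairs. DESeq2 on all libraries gave no p for Klf10. Klf9 and Klf11, with as few as 5 and 6 reads in a library, are limited by depth.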
